A study of Mus musculus with 24 samples.

Results

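The AP-1 transcription factors were followed here as 10 named genes, Fos, Fosb, Fosl2, Jun, Junb, Jund, Atf3, Batf, Batf3 and Maff, among 23394 genes in the RNA-Seq tables of bone marrow-derived dendritic cells (BMDCs). The genes were chosen by name from the gene name column, and all 10 were found. The cells came from C57BL/6 mice aged 9 to 12 weeks, either WT or TTP-/-, the latter lacking Zfp36, the gene of the mRNA-destabilizing protein tristetraprolin (TTP), in the whole body. They had been cultured with the growth factor GM-CSF and were left untreated (0 h) or given 10 ng/ml of the bacterial cell wall component lipopolysaccharide (LPS), collected at 3, 6 or 9 h. Each of the 8 groups had 3 libraries. The labels and methods call these biological triplicates without saying which came from separate animals or cultures, so p-values measure the spread between these libraries.

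AP-1 is a dimer of proteins that share a basic DNA-binding region and a leucine zipper. Jun, JunB and JunD can pair with each other or with c-Fos, FosB and Fra-2 (the product of Fosl2), while ATF3, BATF, BATF3 and the small Maf protein MafF pair with Jun proteins or with other zipper factors. LPS, acting through the receptor TLR4 and the MAP kinases, raises several of these genes as part of the early response of myeloid cells. BATF3 is known for its role in a class of dendritic cells, BATF for its action with IRF4 and IRF8, and ATF3 for restraining inflammatory genes in macrophages. TTP binds AU-rich stretches in the 3′ untranslated region (UTR) of mRNAs, of which UAUUUAU is a core form, and brings in the machinery that shortens the poly(A) tail.

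The AU-rich heptamer UAUUUAU was searched in the longest annotated 3′ UTR of each gene (GENCODE M21, GRCm38, sense strand only), because it bears on which of these mRNAs could carry a TTP site. It was present in 7 of the 10 genes and absent from Junb (485 bases of 3′ UTR), Batf (335 bases) and Batf3 (310 bases). Of the 6855 genes searched, 27.6% had it, and the share rises with the length of the 3′ UTR. Fos had 2 copies in 815 bases, where 20.5% of 869 other expressed genes with a 3′ UTR within 20% of that length had any. Maff had 2 in 1221 bases (25.6% of 943 genes) and Fosl2 3 in 4653 bases (59.6% of 401 genes). Jun, Jund, Atf3 and Fosb had 1 each, where 26.0%, 13.2%, 26.3% and 40.2% of genes of like length had any. The longer form UUAUUUAUU occurred in Fos, Fosl2 and Maff. A match is a description of the letters and not evidence of binding. The windows below are 30 bases long and read 5′ to 3′, with the heptamer in capitals.
Fos, chr12:85477102-85477131, plus strand: guguuuucaauuUAUUUAUuaagauggauu
Fos, chr12:85477126-85477155, plus strand: uggauucucagaUAUUUAUauuuuuauuuu
Fosl2, chr5:32156870-32156899, plus strand: cauuuauuuuauUAUUUAUuuuaaauguuu
Maff, chr15:79358777-79358806, plus strand: cuuccacacucuUAUUUAUugcacgaaucu
Maff, chr15:79358976-79359005, plus strand: gcucccagaguuUAUUUAUuuucugacuuc
Jun, chr4:95049079-95049108, minus strand: uuugcuugugcaUAUUUAUaauagcguucg
Atf3, chr1:191170338-191170367, minus strand: gaaaauauuacuUAUUUAUcccaguauucc

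The tables held FPKM values (reads per gene, divided by gene length and a library total that the authors scaled within each time). Whole reads could be recovered from them, 19966754 to 25553563 assigned reads per library. By Western blot, the study found no TTP protein in TTP-/- BMDCs. Zfp36 mRNA was lower in TTP-/- than in WT cells in every library of each time, and reads were still assigned to the gene in TTP-/- cells. The values were 87.4 to 102 against 201 to 213 FPKM at 0 h (log2 difference -1.11; adjusted p = 0.000847) and 100.1 to 107 against 122 to 136 FPKM at 3 h (-0.29; adjusted p = 0.038). They were 123 to 143 against 157 to 204 FPKM at 6 h (-0.50; adjusted p = 0.058, not passing) and 155 to 162 against 198 to 234 FPKM at 9 h (-0.46; adjusted p = 0.00728). Markers of other cells moved with genotype: dendritic markers summed to 1994 to 2468 FPKM in WT and 1028 to 1493 FPKM in TTP-/- cells at 0 h, and 9 of 12 were lower in TTP-/- cells. Macrophage and monocyte markers summed to 46.8 to 61.8 against 146 to 171 FPKM, neutrophil markers to 181 to 269 against 1124 to 1894 FPKM, and proliferation genes to 8.84 to 9.96 against 44.6 to 70.1 FPKM. Mast cell, basophil and eosinophil markers summed to 31.5 to 38.9 against 175 to 220 FPKM and B cell and plasma cell markers to 3.803 to 6.385 against 45.3 to 74.8 FPKM. T and NK cell markers stayed at or under 1.05 FPKM and erythroid markers at or under 0.754 FPKM in all groups. The sums of the 6 lists that reached those levels differed in the same directions at 3, 6 and 9 h, and their part in the differences below was not tested. At 3 h the WT library of replicate 1 stood apart, with macrophage markers at 155 FPKM against 41.5 FPKM in the lowest WT library. In bulk samples, fewer cells of a type and less RNA per cell cannot be told apart.

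Fos and Batf were the AP-1 genes that were higher in TTP-/- cells at all 4 times. Of the 9 members that passed the filter (a mean of at least 0.5 FPKM), limma's moderated test on log2(FPKM + 0.1), with p-values adjusted over all genes and a threshold of 0.05, called 3 higher and 1 lower in TTP-/- cells at 0 h, against 13.9% and 15.5% of all genes. It called 2 higher and 1 lower at 3 h (11.2% and 14.6% of all genes), 2 higher and none lower at 6 h (10.4% and 6.7%), and 4 higher and 1 lower at 9 h (17.7% and 19.1%). The median log2 fold change of the 9 members was 0.01, 0.26, 0.21 and 0.29 at 0, 3, 6 and 9 h, where that of all genes was -0.04, -0.05, -0.06 and -0.05. The 3 TTP-/- libraries were all on one side of the 3 WT libraries for 5, 4, 4 and 8 of the 9 members, against 45.1%, 44.3%, 37.1% and 51.3% of all genes. Blocking on replicate number, by which the 6 h libraries deviated together, 1253 genes were called higher and 1292 lower at 6 h in place of 869 and 559, and 3 members in place of 2. Rescaling each library to TPM moved the median of all genes to between 0.04 and 0.08, and the share of called genes that were higher from 47.2%, 43.6%, 60.9% and 48.1% to 61.6%, 59.5%, 78.4% and 67.2%, and ended the calls of Maff at 0 h and Batf3 at 9 h (both -0.41) without turning the direction of any member call. Apart from Fos and Batf, no member was called at more than 1 time.

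**Figure D1:**
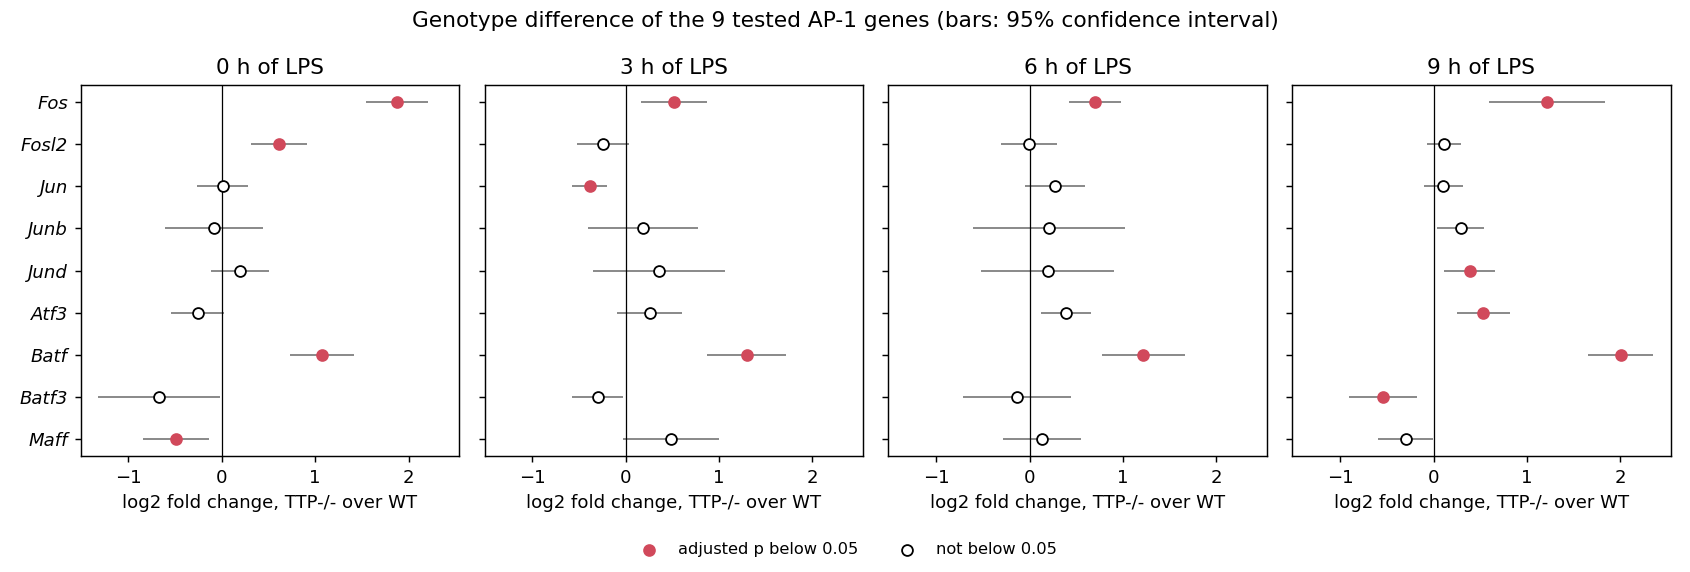
Genotype difference of the 9 tested AP-1 genes at each time, as the log2 fold change of TTP-/- over WT cells on the log2(FPKM + 0.1) scale (points, 3 libraries per group; bars, 95% confidence interval; filled points, adjusted p below 0.05). Fos and Batf were filled on the right at all 4 times, Batf reaching 2.01 at 9 h, while the intervals of Junb and Jund were wide at 3 and 6 h.

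The Fos genes form the partner side of the classical dimer, and c-Fos itself is the textbook immediate-early factor. Fos (ENSMUSG00000021250) lies at chr12:85473890-85477273 on GRCm38, on the same chromosome as Batf. In untreated cells Fos measured 0.277, 0.271 and 0.191 FPKM for WT, against 1.15, 1.13 and 1.22 FPKM for TTP-/-. Every TTP-/- library was above every WT library, and the ratio of the means was 4.71. On the log2(FPKM + 0.1) scale, which understates the change of low genes, the difference was 1.87 ± 0.14 (standard error; adjusted p = 0.000279). At 3 h, WT libraries gave 2.19, 2.37 and 2.14 FPKM, against 2.78, 4.09 and 2.97 FPKM, again without overlap, and the difference was 0.52 ± 0.15 (adjusted p = 0.0467). At 6 h they gave 0.365, 0.363 and 0.345 FPKM against 0.642, 0.603 and 0.692 FPKM (log2 difference 0.70 ± 0.12; adjusted p = 0.0068). At 9 h they gave 0.292, 0.173 and 0.166 FPKM against 0.720, 0.788 and 0.388 FPKM, the third TTP-/- library lying well below the other two (1.21 ± 0.26; adjusted p = 0.0104). Fos was thus separated by genotype at each time, on 12 to 289 reads in a library. The call at 3 h was lost when any 1 of its 6 libraries was left out, with differences of 0.35 to 0.62, and the calls at 0, 6 and 9 h were kept.

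LPS raised Fos early, with the highest levels at 3 h. For comparisons between times the recovered reads of all 24 libraries were brought to one scale, in FPKM-like units. On it WT cells had 0.208, 0.203 and 0.144 at 0 h and 2.27, 2.49 and 2.24 at 3 h, a log2 rise (limma, one fit of 8 group means over 24 libraries) of 3.10 ± 0.19 (adjusted p = 5.75e-11), and by 9 h they had fallen by 2.89 ± 0.19 from 3 h (adjusted p = 7.43e-10). In TTP-/- cells, 0.873, 0.854 and 0.933 at 0 h became 2.85, 4.21 and 3.06 at 3 h, a rise of 1.80 ± 0.19 (adjusted p = 1.81e-07). At 6 h Fos in WT cells was still above 0 h by 0.82 ± 0.19 (adjusted p = 0.00113). That call was kept in 2 of 5 other scalings. The change from 0 to 6 h in TTP-/- cells was not called on this scale (-0.26, 95% interval -0.66 to 0.13). The change from 0 to 9 h was not called in WT (0.21, 95% interval -0.19 to 0.61) or TTP-/- cells (-0.35, -0.75 to 0.05), but without TTP-/- 9 h replicate 2 the latter was -0.52 and passed, and it was called lower in 4 of 5 other scalings (-0.95 to -0.40 over the 5). The genotype difference itself was smaller at 3 h than at 0 h by 1.30 ± 0.27 (adjusted p = 0.00636) and smaller at 6 h than at 0 h by 1.09 ± 0.27 (adjusted p = 0.0155). In FPKM the TTP-/- mean exceeded the WT mean 4.71-fold at 0 h, 1.47-fold at 3 h, 1.80-fold at 6 h and 3.01-fold at 9 h. With a pseudocount of 1 in place of 0.1 neither change passed (-0.29 and -0.37).

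Fosl2 encodes Fra-2, a more slowly induced Fos protein, and lies at chr5:32135801-32157842. It was called higher in untreated TTP-/- cells and was not called at a later time. The 0 h values were 3.06, 3.33 and 2.85 FPKM (WT) against 5.02, 4.13 and 5.17 FPKM (TTP-/-), so that the lowest TTP-/- library exceeded the highest WT library (log2 difference 0.61 ± 0.13; adjusted p = 0.0118). Without WT replicate 1 or without WT replicate 3 this difference was 0.61 or 0.56 and no longer passed. At 3 h the order was turned, 7.67, 6.02 and 5.86 FPKM (WT) against 5.27, 5.52 and 5.58 FPKM, but the difference did not pass (-0.24, 95% interval -0.52 to 0.04). The intervals at 6 h (-0.30 to 0.30) and 9 h (-0.07 to 0.30) included 0 as well, although at 9 h all TTP-/- libraries (4.71 to 4.93 FPKM) were above all WT libraries (4.28 to 4.66 FPKM) and voom on the recovered reads called the difference (0.24). On the common scale Fosl2 rose by 1.51 ± 0.11 from 0 to 3 h in WT and by 0.62 ± 0.11 in TTP-/- cells, and the genotype difference was smaller than at 0 h by 0.89 at 3 h, 0.64 at 6 h and 0.52 at 9 h (adjusted p = 0.00155, 0.0124 and 0.0366). The last of these was lost without any 1 of 10 of the 12 libraries it used, WT 0 h replicate 2 and TTP-/- 0 h replicate 2 being the exceptions, with values of -0.54 to -0.46. Fosb had 2 to 14 reads in a library and a mean of 0.0435 FPKM, failed the filter and was not tested. Its values ran from 0.0128 to 0.0717 FPKM in WT and from 0.0328 to 0.0728 FPKM in TTP-/- libraries and overlapped at each time.

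**Figure D2:**
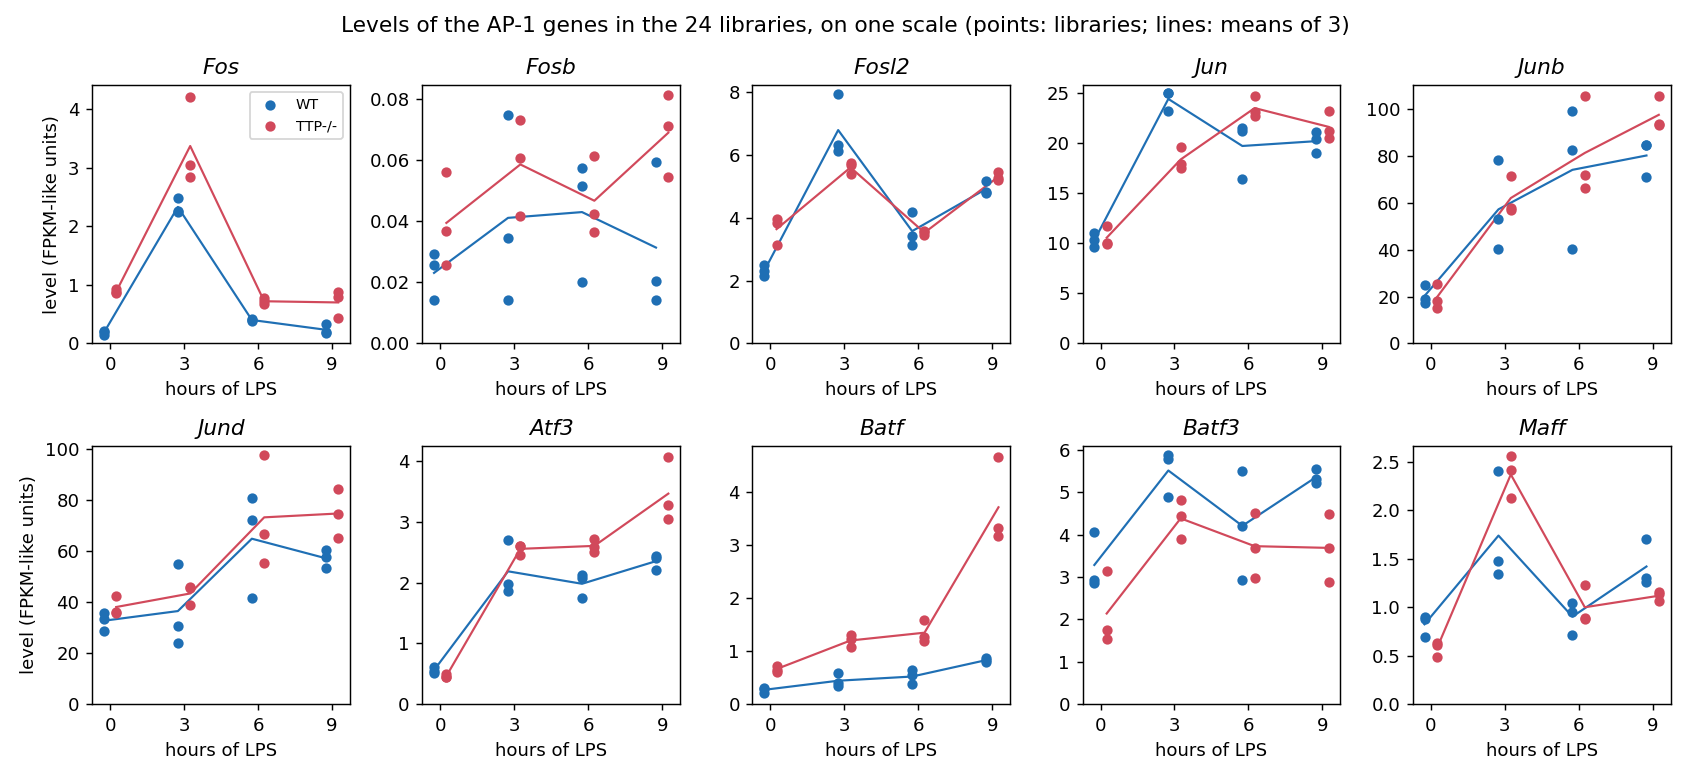
Levels of the 10 AP-1 genes in the 24 libraries, as recovered reads on one scale in FPKM-like units (y axes start at 0; points, libraries; lines, means of 3) against hours of LPS. Fos and Maff peaked at 3 h, Atf3, Jun and Junb stayed up to 9 h, and Batf in TTP-/- cells (red) reached 3.17 to 4.65 at 9 h, above the 0.791 to 0.873 of WT cells (blue).

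Of the Jun genes, which supply the partner that every Fos protein needs, Jun alone was called in a genotype comparison before 9 h. Jun lies at chr4:95049034-95052222. At 3 h it measured 22.4, 23.8 and 23.95 FPKM (WT) against 17.1, 19.1 and 17.4 FPKM (TTP-/-). All TTP-/- libraries were below all WT libraries, a log2 difference of -0.39 ± 0.08 (adjusted p = 0.0154). The call was lost without WT replicate 2 (-0.37), TTP-/- replicate 1 (-0.36) or TTP-/- replicate 3 (-0.37). In untreated cells Jun was at 12.8, 14.7 and 13.7 against 12.98, 13.2 and 15.3 FPKM, with an interval of the log2 difference of -0.27 to 0.28. At 6 h the TTP-/- libraries, at 20.6, 20.4 and 22.1 FPKM, were all above the WT libraries, at 14.8, 19.0 and 18.9 FPKM, but the difference did not pass (0.27, -0.05 to 0.59), and neither did that at 9 h (0.10, -0.11 to 0.31). LPS raised Jun on the common scale by 1.24 ± 0.10 (WT) and 0.80 ± 0.10 (TTP-/-) at 3 h and by 0.97 and 1.03 at 9 h. The genotype difference at 9 h exceeded that at 3 h by 0.51 ± 0.14 (adjusted p = 0.0487). This last call was lost without any 1 of the 12 libraries at 3 and 9 h, with values of 0.46 to 0.56.

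JunB and JunD, which often act to hold back c-Jun, reached the highest read counts of the family, 4102 and 5504 reads in a library. Their genes lie at chr8:84974484-84978718 and chr8:70698949-70700616. Junb at 9 h gave 75.9, 76.2 and 63.7 FPKM (WT) against 95.3, 83.7 and 84.4 FPKM (TTP-/-), without overlap, but the difference did not pass (0.29, 95% interval 0.04 to 0.54; adjusted p = 0.075). Jund at 9 h gave 54.0, 48.1 and 51.7 FPKM against 67.2, 58.5 and 76.1 FPKM and passed (0.38 ± 0.12; adjusted p = 0.0372). That call was lost without any 1 library other than TTP-/- replicate 2, with values of 0.29 to 0.42. At 3 h the spread was wide: Junb ran over 75.2, 50.5 and 38.5 FPKM and Jund over 52.7, 29.2 and 22.9 FPKM in the 3 WT libraries, in the same order, replicate 1 being highest. At 6 h the WT libraries gave 36.3, 72.8 and 88.2 FPKM for Junb and 37.3, 63.6 and 71.9 FPKM for Jund, with replicate 1 now lowest. The genotype differences at 0, 3 and 6 h did not pass, with intervals of -0.61 to 0.44, -0.40 to 0.77 and -0.61 to 1.02 for Junb and of -0.12 to 0.51, -0.35 to 1.07 and -0.52 to 0.91 for Jund. Without WT replicate 1 the 3 h difference of Jund was 0.70 and passed. After LPS, Junb rose by 1.46 ± 0.28 at 3 h and 1.99 ± 0.28 at 9 h in WT cells and by 1.68 and 2.34 in TTP-/- cells (log2, common scale). No change of its genotype difference with time passed the test, the intervals reaching from -0.62 to 1.06 at 3 h.

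The replicate spread of most members moved with a property of the libraries. Over all genes, the deviation of a library from the mean of its group was correlated with the GC content of the transcript, with Spearman's rho from -0.77 to 0.727 in the 24 libraries. All 10 members lie above the median GC content of all genes tested, from Fos (51.9% GC in its longest transcript) to Batf3 (60.7%), Junb (62.6%) and Jund (67.1%). Over the 24 libraries, the deviations of Batf3, Junb, Jun and Jund were correlated with that rho (Pearson's r = 0.887, 0.866, 0.751 and 0.727). Those of Fosl2, Maff, Atf3 and Batf had r = 0.641, 0.635, 0.484 and 0.382, and those of Fos had the lowest r of the 9, 0.136. Junb and Jund deviated together (r = 0.883). These r describe libraries that share groups and carry no test. The GC adjustment used another deviation, that of each library from the mean of all libraries in the fit. It therefore also removed differences between groups that followed GC content, and not replicate spread alone. When the GC trend of each library was removed, an alternative added after the data were seen, Batf3 was called lower in TTP-/- cells at 0 h (-0.66), 3 h (-0.26) and 9 h, Atf3 was called at 0 h (-0.22), 6 h (0.42) and 9 h, Jun gained a call at 6 h (0.26), and Jund at 9 h lost its call (0.27). Fos and Batf kept their calls at all 4 times.

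**Figure D3:**
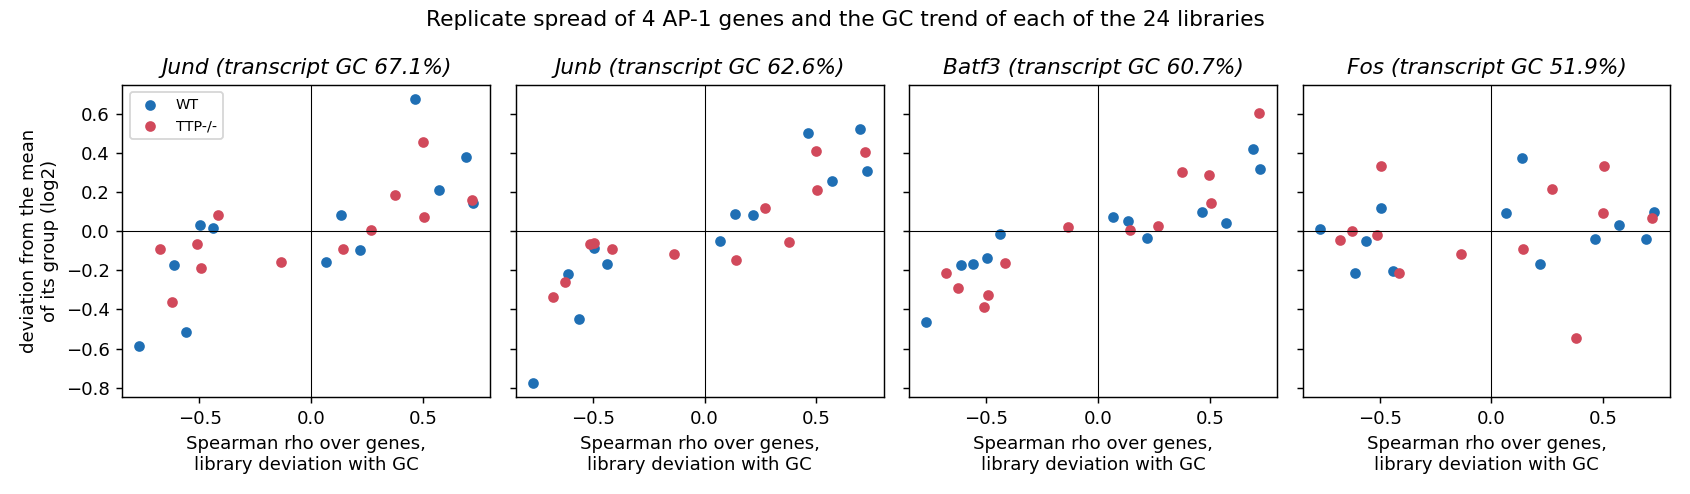
Deviation of Jund, Junb, Batf3 and Fos from the mean of their group (log2) in each of the 24 libraries against Spearman's rho, over all genes, between that library's deviations and transcript GC content. Points of the 3 members with the highest GC content rise from left to right (r = 0.727, 0.866 and 0.887), and those of Fos had the lowest r of the 9 members (0.136), below the 5 not drawn (0.382 to 0.751).

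Batf, whose protein pairs with Jun proteins and, together with IRF4 or IRF8, reads composite DNA sites, differed most between genotypes at 9 h. Batf (ENSMUSG00000034266) lies at chr12:85686669-85709087. The untreated values were 0.420, 0.372 and 0.293 FPKM (WT) against 0.956, 0.803 and 0.845 FPKM (TTP-/-; log2 difference 1.08 ± 0.15; adjusted p = 0.00222). At 3 h they were 0.566, 0.377 and 0.330 against 1.19, 1.26 and 1.05 FPKM (1.30 ± 0.18; adjusted p = 0.00357). At 6 h they were 0.346, 0.479 and 0.568 against 1.06, 1.13 and 1.42 FPKM (1.22 ± 0.19; adjusted p = 0.00456). At 9 h they were 0.709, 0.786 and 0.744 against 2.99, 4.18 and 2.86 FPKM (2.01 ± 0.15; adjusted p = 7.29e-05). No WT library reached any TTP-/- library of its time, on 142 to 1933 reads, and all 4 calls were kept without any 1 library and in each of 12 other settings. From 0 to 9 h Batf rose by 1.33 ± 0.18 in WT and by 2.30 ± 0.18 in TTP-/- cells on the common scale. The genotype difference at 9 h was larger than at 0 h by 0.97 ± 0.25 (adjusted p = 0.0179). That change was lost without WT 0 h replicate 1 (0.89) or TTP-/- 9 h replicate 2 (0.80), the library with the highest Batf value. It was also lost with a pseudocount of 0.01 (0.86).

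Batf3, the close relative of Batf, went the other way. It lies at chr1:191097847-191108945, beside Atf3. At 9 h it measured 4.97, 4.70 and 4.77 FPKM (WT) against 3.34, 2.58 and 4.06 FPKM (TTP-/-), all TTP-/- libraries below all WT libraries (-0.54 ± 0.16; adjusted p = 0.031). The call was lost without any 1 WT library or TTP-/- replicate 1, with values of -0.56 to -0.52. The 0 h libraries overlapped, 3.91, 5.41 and 3.798 FPKM against 2.01, 2.29 and 4.09 FPKM, the last of these being the TTP-/- library whose deviations rose with GC (rho = 0.719), and the difference did not pass (-0.68, 95% interval -1.33 to -0.02; adjusted p = 0.113). Without that TTP-/- library it was -0.98 and passed. The WT library at 5.41 FPKM, replicate 2, likewise had deviations that rose with GC (rho = 0.727). Intervals at 3 h (-0.58 to -0.03) and 6 h (-0.72 to 0.44) belonged to differences that did not pass either. No change of the Batf3 genotype difference with time was called, the value at 9 h against 0 h being 0.10 (-0.61 to 0.80).

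Atf3, which can act as a repressor when it binds as a pair with itself, rose under LPS in both genotypes and rose further in TTP-/- cells. The gene lies at chr1:191170296-191218039. The 0 h values were 0.739, 0.826 and 0.675 FPKM (WT) against 0.583, 0.587 and 0.653 FPKM (TTP-/-), all TTP-/- libraries being below, but without passing (-0.26, 95% interval -0.54 to 0.03). At 9 h they were 2.16, 2.20 and 1.99 against 2.96, 3.66 and 2.75 FPKM, now all TTP-/- libraries above (0.53 ± 0.12; adjusted p = 0.0118), a call kept without any 1 library. The 3 h groups overlapped (0.26, -0.09 to 0.60). At 6 h the groups were also apart, 1.57, 1.83 and 1.90 against 2.23, 2.33 and 2.43 FPKM, with an adjusted p of 0.0605. With the replicate number as a block this p was 0.0226, and over the 12 settings tried apart from leaving out a library it ran from 0.00231 to 0.0689; without WT replicate 1 the difference was 0.31 and passed. From 0 h to 3, 6 and 9 h the log2 rise was 1.78, 1.65 and 1.90 in WT and 2.24, 2.26 and 2.65 in TTP-/- cells (standard error 0.12; common scale). The genotype difference grew from 0 h by 0.61 ± 0.17 at 6 h (adjusted p = 0.032) and by 0.76 ± 0.17 at 9 h (adjusted p = 0.00796). The change at 6 h was lost without any 1 of 7 of its 12 libraries (0.52 to 0.61), those of replicates 1 and 2 of both 0 h groups, WT 6 h replicate 1 and TTP-/- 6 h replicates 2 and 3. That at 9 h was kept. Without WT 3 h replicate 1 the 3 h genotype difference of Atf3 was 0.42 and its change from 0 h 0.62, and both passed.

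Maff, a small Maf protein that has no activation domain of its own, was lower in untreated TTP-/- cells. The gene lies at chr15:79346621-79359076. The values were 1.202, 1.17 and 0.927 FPKM (WT) against 0.828, 0.635 and 0.795 FPKM (TTP-/-), without overlap (-0.49 ± 0.15; adjusted p = 0.0467). The call was lost without WT replicate 1 (-0.43), WT replicate 2 (-0.45), TTP-/- replicate 1 (-0.56) or TTP-/- replicate 2 (-0.39). At 3 h WT libraries gave 2.32, 1.40 and 1.28 FPKM, against 2.36, 2.49 and 2.07 FPKM, WT replicate 1 lying among the TTP-/- libraries (0.49, 95% interval -0.03 to 1.00). Without that library the 3 h difference was 0.73 and passed. The differences at 6 h (0.14, -0.28 to 0.55) and 9 h (-0.30, -0.59 to -0.01, adjusted p = 0.102) did not pass, although at 9 h all TTP-/- libraries, at 0.958 to 1.05 FPKM, were below the WT libraries, at 1.13 to 1.53 FPKM. Maff rose by 0.96 ± 0.18 from 0 to 3 h in WT and by 1.88 ± 0.18 in TTP-/- cells on the common scale, and the genotype difference changed by 0.92 ± 0.26 (adjusted p = 0.0473). That change was lost when any 1 of 9 of its 12 libraries was left out, with values of 0.77 to 0.99, the exceptions being replicate 3 of both 0 h groups and WT 3 h replicate 1.

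Across the family LPS raised most members in both genotypes. On the common scale 8 of 9 members were higher at 3 h than at 0 h in WT cells (33.3% of all genes were), 7 at 6 h (34.6%) and 8 at 9 h (35.8%). In TTP-/- cells the counts were also 8 (31.7%), 7 (35.6%) and 8 (37.2%). On this scale no member was called lower. From 3 to 9 h, 2 rose and 3 fell in WT cells (18.7% and 19% of all genes), namely Jund and Batf against Fos, Fosl2 and Jun. The WT calls of Jund and Jun were lost without any 1 of the 6 libraries but WT 3 h replicate 1 (0.48 to 0.78 for Jund, -0.30 to -0.23 for Jun), and without that library Junb rose too (0.79). In TTP-/- cells 3 rose and 2 fell (21.5% and 18.7%), namely Jund, Atf3 and Batf against Fos and Maff, the call of Jund being lost without TTP-/- 3 h replicate 3 or 9 h replicate 1 or 3 (0.69 to 0.78) and that of Atf3 without TTP-/- 9 h replicate 2 (0.30). The median log2 change of the members at 3 h was 1.24 in WT and 1.06 in TTP-/- cells, where that of all genes was 0.10 and 0.08. The scale matters here, because all genes shift with it: their median from 0 h to later times was 0.08 to 0.11 on the scale used, but -0.43 to -0.33 with FPKM as deposited and -0.45 to -0.33 with reads scaled to library size, where the share of called genes that were higher at 3 h in WT fell from 62.9% to 23.4% and 22.9%. Under 5 other scalings (those 2, voom on the recovered reads, quantile normalization and GC-adjusted values) Jun, Junb and Atf3 were called higher at every time in both genotypes, as were Fos and Maff at 3 h. The rises of Jund (0.81 for WT and 0.97 for TTP-/- at 9 h) were 0.10 to 0.34 and 0.12 to 0.60 under those scalings and were called in 0 and 1 of the 5. At 3 h Jund did not pass on the main scale (0.07 and 0.19) and was below 0 under all 5 others (-0.41 to -0.40 in WT, -0.29 to -0.18 in TTP-/-). The Batf3 rises at 9 h (0.71 and 0.80) were likewise called in 0 and 1 of the 5. Some falls were called under these scalings that were not called on the common scale. Fosl2 from 0 to 6 h in TTP-/- cells (-0.04 on the common scale) was called lower under all 5, at -0.58 to -0.22. Fos in TTP-/- cells was called lower at 6 h in 3 of the 5 and at 9 h in 4 of the 5. Maff at 6 h in WT cells was called lower in 2 of the 5 (-0.48 and -0.43), and Jund at 3 h in both genotypes with GC-adjusted values. Of the members called higher at 3, 6 and 9 h, 6, 3 and 5 in WT and 6, 4 and 4 in TTP-/- cells were called under all 5. Leaving out WT 0 h replicate 3 lost the WT calls of Batf (0.43) and Batf3 (0.66) at 3 h and of Jund (0.72) and Batf3 (0.62) at 9 h. WT 0 h replicate 1 decided the Batf3 calls (0.67 and 0.64), WT 3 h replicate 1 that of Batf at 3 h (0.35), and TTP-/- 0 h replicate 1 that of Batf3 at 9 h in TTP-/- cells (0.61).

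**Figure D4:**
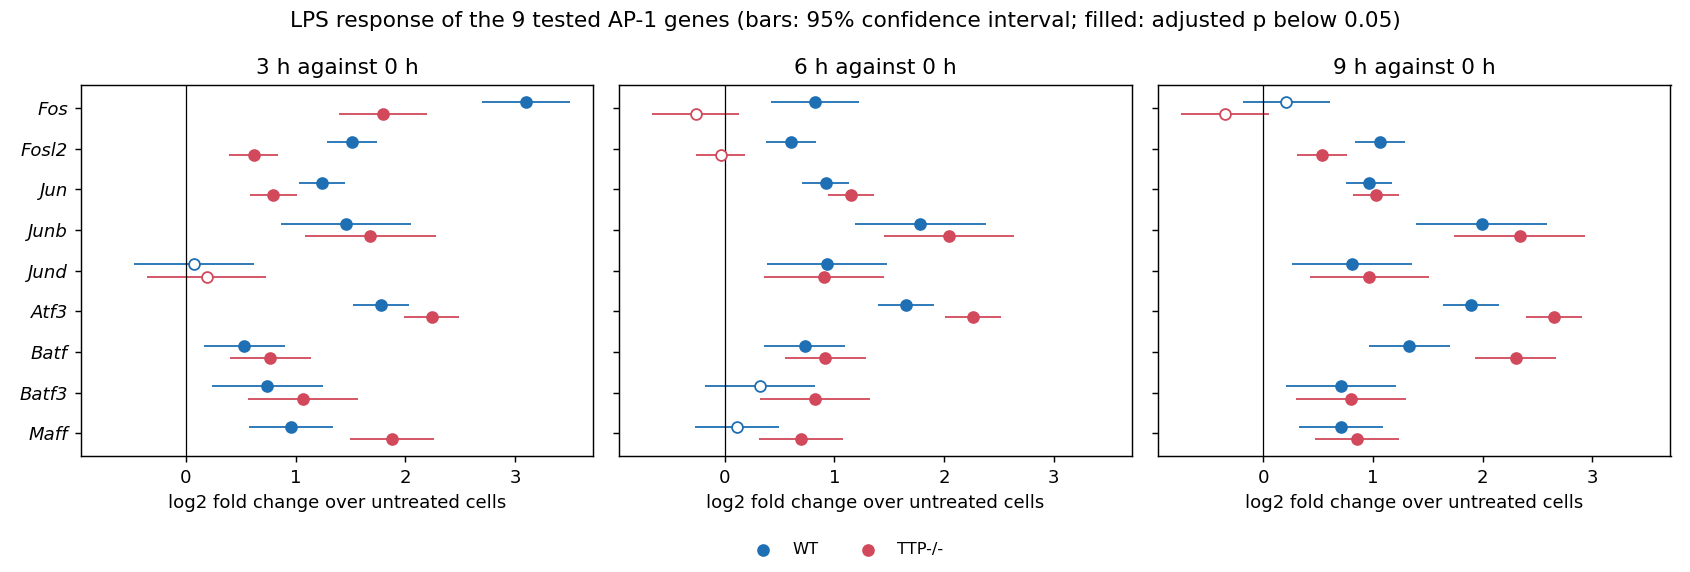
LPS response of the 9 tested AP-1 genes, as the log2 fold change over untreated cells of the same genotype on the common scale (points, 3 libraries per group; bars, 95% confidence interval; filled points, adjusted p below 0.05; blue WT, red TTP-/-). At 3 h Fos stood at 3.10 for WT and 1.80 for TTP-/-, and at 9 h Batf at 1.33 and 2.30.

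The changes of the genotype difference with time described above numbered 3, 3, 3 and 1 of 9 members for 3, 6 and 9 h against 0 h and for 9 h against 3 h. Of all genes 4.58%, 8.09%, 9.7% and 4.63% were called. Under the 5 other scalings the first 9 of these 10 calls were kept. A factor shared by all libraries of a time cancels in these changes, so rescaling the times against each other hardly tests them. The tenth, Jun at 9 h against 3 h, was kept in 2 of the 5, with values of 0.43 to 0.49.

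Levels can be compared between genes only per length, so the common-scale values were also expressed per kilobase of exon. In untreated WT cells Jund led with 56.3 ± 6.13 (SD, n = 3), followed by Batf3 (22.8 ± 4.66), Junb (16.2 ± 3.19), Atf3 (12.4 ± 1.23), Jun (10.3 ± 0.703), Fosl2 (5.10 ± 0.383), Batf (4.33 ± 0.759), Maff (3.67 ± 0.492), Fos (0.266 ± 0.051) and Fosb (0.027 ± 0.0091). Neighbours within their SDs in that order were Batf3 and Junb, Junb and Atf3, Fosl2 and Batf, and Batf and Maff. At 9 h the WT order was Jund (98.4), Junb (64.0), Atf3 (52.2), Batf3 (37.2), Jun (20.2), Batf (13.2), Fosl2 (10.9), Maff (6.32), Fos (0.337) and Fosb (0.0367). For Jund and Junb the length behind the deposited values was neither the gene span nor this exon length. With the deposited length, Junb (80.1) was above Jund (57.1) in WT cells at 9 h, so their order depends on the length taken. In TTP-/- cells at 9 h Batf stood at 59.1 ± 13.01, next to Atf3 (76.8 ± 12.0) and Junb (77.8 ± 5.66) and above Batf3 (25.6 ± 5.64) and Jun (21.6 ± 1.40). Fos, at 1.01 ± 0.343, remained below Maff (4.97 ± 0.212). Levels of overlapping genes cannot be told apart without knowing whether strand was used in counting, which is not given in the sources used here. This touches Jund, which contains the antisense gene Gm11175 (chr8:70699162-70700080), Atf3, which contains Gm24748, and the ends of Jun (Junos) and Junb (Prdx2).

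As a description of pattern, the 3 genes with the highest Pearson correlation of log2 level to each member over the 24 libraries were listed among 8343 genes. Fos was nearest to Abhd17c (0.939), Sh2b2 (0.926) and E2f8 (0.925), and Batf to Saa3 (0.979), Slc31a2 (0.976) and Ccl2 (0.973), the last the gene of a monocyte-attracting chemokine. Atf3 was nearest to Oasl1 (0.984), Daxx (0.979) and Procr (0.978), and Jun to Themis2 (0.968), Elf4 (0.963) and Bcl3 (0.963). For Fosl2 the nearest were Trp53inp2 (0.897), Ptprj (0.880) and Ppard (0.864), for Maff Arih2 (0.888), Csrnp1 (0.861) and Rab11fip1 (0.856), and for Batf3 Dcaf11 (0.959), Cd2bp2 (0.947) and Arrdc1 (0.939). Junb was nearest to Dda1 (0.982), Tmem184b (0.969) and Dnajb12 (0.968), and Jund to its antisense neighbour Gm11175 (0.982), Zbtb7a (0.945) and Zdhhc12 (0.933). Among the members, the levels of Atf3 and Junb (0.946), Atf3 and Jun (0.918) and Jun and Junb (0.900) were the most alike. The libraries share treatment groups and the GC trend above.

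Other genes around AP-1 were taken from 3 lists. Of 31 other basic leucine zipper factors, 24 passed the filter, of which 7, 7, 10 and 11 were higher and 3, 3, 2 and 4 lower in TTP-/- cells at 0, 3, 6 and 9 h, with medians of 0.23, 0.30, 0.36 and 0.37 on the log2 scale. Of all genes 13.9%, 11.2%, 10.4% and 17.7% were called higher and 15.5%, 14.6%, 6.7% and 19.1% lower at these times, with medians of -0.04, -0.05, -0.06 and -0.05. Cebpb and Cebpd, C/EBP factors of inflammatory myeloid cells, and Nfe2, known from megakaryocytes and red cell precursors, were higher by the most, Cebpb by 2.78 ± 0.21 at 9 h, Nfe2 by 2.53 ± 0.19 at 6 h and Cebpd by 1.55 ± 0.11 at 0 h. Nfe2l1 was lower, by -0.81 ± 0.18 at 0 h. Nfil3 was lower at 0 h (-0.96 ± 0.14) but higher at 3 h (0.81) and 6 h (0.89). Of the 26 upstream kinases and factors 21 passed the filter, with 3, 2, 2 and 3 higher and 3, 4, 1 and 2 lower, the counts of higher genes being near those shares of all genes, and medians of 0.06, -0.02, -0.03 and 0.01. The p38 kinase gene Mapk14 was higher (1.10 ± 0.11 at 0 h), as were Rps6ka1 (1.19 ± 0.16 at 6 h), which encodes a kinase downstream of ERK, and Map2k3 (0.37 ± 0.11 at 0 h), which encodes an activator of p38. The MAP3 kinase gene Map3k1 (-0.91 ± 0.13 at 0 h), the ERK1 gene Mapk3 (-0.59 ± 0.08 at 3 h) and the MEK1 gene Map2k1 (-0.53 ± 0.08 at 3 h) were lower. Of the 11 partners and turnover factors 8 passed the filter, with 1 higher at each time and 2, 3, 1 and 3 lower, and medians of 0.05, -0.23, -0.24 and -0.19. Irf4 and Irf8, whose proteins bind DNA together with BATF, were lower, Irf4 by -1.09 ± 0.07 at 3 h and by -1.03 to -0.92 at the other times, and Irf8 by -1.15 ± 0.21 at 0 h. With 1 of the 8 genes called lower at 6 h, Irf4 and Irf8 were not both called at that time. Trib1 was higher (0.95 ± 0.15 at 3 h), as was Nfatc1 at 0 h (0.33 ± 0.10), while Itch, a ubiquitin ligase of Jun proteins, was lower at 3 h (-0.38 ± 0.11).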

How the data were processed

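RNA from 24 BMDC libraries was polyA-selected, made into libraries with a strand-marking kit, read as single ends of 100 bases and aligned to GRCm38 with STAR 2.5 (the submitters' processing notes also name cutadapt, FastQC and DESeq2, with no version). The authors deposited FPKM values, 1 table per time with 6 libraries. On testing, the values equal reads divided by gene length and by a library total scaled within the time. The length was the whole gene span for 78.1% of genes, so FPKM of genes with introns is low. Levels were therefore compared between genes per exon length, with Jund and Junb also given on the deposited length. A length was accepted only if it made every value of a gene whole within 0.05 reads, so 100% of values were so by construction. For 5101 genes, Jund and Junb among them, it was the shortest length that did this. Within 0.01 of a whole read were 86.89% of values. The tables also hold the authors' own mean, fold change, standard error, statistic and p-values, which were not used. Gene names came from the tables for 16878 IDs and from GENCODE for 6261. The 3′ UTR sequences were read from GENCODE M21 transcripts.

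Genotypes were compared with limma 3.58.1 (R 4.3.3), with its mean-variance trend, on log2(FPKM + 0.1) in the 6 libraries of a time, for genes averaging 0.5 FPKM or more, with Benjamini-Hochberg adjustment over all of them (8346 genes at 0 h). The filter and the added 0.1 acted on values per deposited length, which are low for genes with introns. Per kilobase of exon, 12256 genes passed the filter at 0 h. Times, and changes of the genotype difference with time, were tested in 1 limma fit of 8 group means on recovered reads at one median-ratio scale (8344 genes). The deposited values are FPKM, so a log-scale linear model was the main test. An edgeR count test on the recovered reads was not run. The count alternative was limma-voom on recovered reads (mean of at least 10 reads), which called 3252 of 14117 genes higher and 1671 lower at 0 h. Scripts were tested on simulated data.

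The members and lists were chosen with earlier results of these data known. All 10 members were described. From each list, up to 3 genes per direction with the largest called genotype difference at any time were named, of which 1 is not reported here. The GC-adjusted values (loess, span 0.3) and their combination with the replicate block were added after the data were seen. The GC trend was fitted to each library's deviation from the mean of all libraries in the fit. Deviations of same-numbered libraries of the 2 genotypes had r over 0.1 in 6 of 12 pairs (r from -0.582 to 0.504). Every same-numbered pair was over 0.1 only at 6 h (0.217 to 0.504), and the sources do not say what a number stands for. Pairs with different numbers reached r = 0.707 at 0 h.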

Additional observations from a re-analysis of the deposited data

Results flagged for a closer look

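The genotype difference (TTP-/- over WT, log2, common scale, limma over all genes) changed with LPS time for 6 AP-1 genes in 10 tests, each by the interaction term itself, with 3 libraries per group. For Fos it was smaller than at 0 h by -1.30 at 3 h and -1.09 at 6 h (adjusted p = 0.00636 and 0.0155), and for Fosl2 by -0.89 at 3 h, -0.64 at 6 h and -0.52 at 9 h (adjusted p = 0.00155, 0.0124 and 0.0366). For Atf3 it was larger than at 0 h by 0.61 at 6 h and 0.76 at 9 h (adjusted p = 0.032 and 0.00796), for Batf by 0.97 at 9 h (adjusted p = 0.0179) and for Maff by 0.92 at 3 h (adjusted p = 0.0473). For Jun it was larger at 9 h than at 3 h by 0.51 (adjusted p = 0.0487). The Fos and Fosl2 changes at 3 and 6 h and the Atf3 change at 9 h were kept without any 1 library. With a pseudocount of 1 in place of 0.1, neither Fos change passed (-0.29 and -0.37).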

How the results depend on the processing

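Of 1632 single-gene values under settings other than leaving out a library, 1463 kept direction and side of the threshold, 56 gained a call, 108 lost one and 5 reversed. Of 1080 with 1 library left out, 984 kept both, 10 gained and 86 lost a call and none reversed. The reversed values had no call on the main scale: Jund from 0 to 3 h was -0.41 in WT with GC-adjusted values, alone and with the block, and -0.29 in TTP-/- cells with GC-adjusted values, and Maff from 0 to 6 h in WT was -0.48 with voom and -0.43 at library size. The number of members called higher or lower between genotypes was 4, 3, 2 and 5 at 0, 3, 6 and 9 h. Raising the filter to 5 FPKM, which leaves 3 members to test, gave 0, 1, 0 and 1. With no filter it was 3 at 9 h, and in one fit of the 24 libraries 4 at 6 h and 3 at 9 h. With voom it was 5 at 3 h and 4 at 6 h, and with GC-adjusted values 4 at 6 h. The replicate block gave 2 at 0 h, and with GC-adjusted values 5 at 3 h and 4 at 6 h. Leaving out 1 library gave 2 to 5, 1 to 5, 2 to 3 and 3 to 5. Members called from 0 to 6 h in WT numbered 7, but 4 with voom, 3 with FPKM as deposited and 4 at library size, and 7 with any library left out. From 0 to 9 h they numbered 8 in each genotype but 5 with each of those settings, and in WT also 5 with GC-adjusted values, with and without the block. One library left out gave 6 to 8 in WT and 7 to 9 in TTP-/- cells. It gave 6 to 8 and 8 from 0 to 3 h, and 3 to 6 and 4 to 5 from 3 to 9 h, in WT and TTP-/- cells. Members whose genotype difference changed numbered 3, 3, 3 and 1 (3, 6 and 9 h against 0 h, and 9 h against 3 h). A pseudocount of 1 gave 1, 1 and 2 in the first, second and last, and GC-adjusted values gave 5 in the first (5 with the block) and 3 in the last (2 with the block). The last was 0 with a pseudocount of 0.01, quantile normalization, the replicate block, voom or library size. One library left out gave 2 to 4, 2 to 3, 1 to 3 and 0 to 1. Apart from the filter, the cause was not tested. Between genotypes, the block on replicate number lost the Fosl2 and Maff calls at 0 h, at unchanged values (0.61 and -0.49). But numbers did not pair the genotypes outside 6 h: at 0 h WT replicate 2 deviated most like TTP-/- replicate 3 (r = 0.707). In the fit of 24 libraries the block was instead replicate number within a genotype, across times. It lost the Atf3 change at 6 h and the Maff change at 3 h, also at unchanged values (0.61 and 0.92). Same-numbered libraries of a genotype had r over 0.1 between times in 12 of 36 pairs (-0.431 to 0.498).

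Over the genes each tested, voom called 4923, 4428, 3248 and 5261 between genotypes, and the main test 2451, 2155, 1428 and 3071. Voom tested more genes, 14117, 14126, 14128 and 14128 against 8346, 8351, 8348 and 8350, so these counts are not of one set. Of the voom calls 66.1%, 72.6%, 80.4% and 69.7% were higher. The block called 1388 at 0 h and 2545 at 6 h, GC-adjusted values 3864 at 0 h and 2523 at 6 h, and the fit of 24 libraries 2426 at 6 h. Depth limits Fosb and, in WT cells, Fos at 0, 6 and 9 h (14 to 23, 25 to 28 and 12 to 22 reads). Where a library was left out, its group's remaining pair was assumed to vary like the others.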
